A study of Mus musculus with 5 samples.

Results

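Dense clusters of distal accessible regions are stretches of the genome in which many open chromatin sites away from gene ends lie side by side. They were chosen by the peaks of the control limb buds. Peaks of all 5 libraries that shared at least 1 bp on chromosomes 1 to 19 were merged into 85522 regions, of which 44386 held a peak in both controls. Of these, 30813 lay over 1 kb from either end of any protein-coding gene and are called distal. Neighbouring distal regions with gaps of at most 12500 bp were joined, and joined groups of 5 or more were kept. This gave 476 clusters with 3155 member regions, 10.2% of the distal control regions, and the other 27658 distal regions serve as the comparison. Peaks of the mutants took part in the merging, where a mutant peak can widen a region or join neighbouring ones. Presence of a peak in a mutant was not otherwise used to choose a member. Regions merged from the control lists alone gave 506 clusters with 3391 members.

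ATAC-seq, which inserts sequencing adapters into accessible DNA with a transposase, was applied to the anterior part of the mouse forelimb bud. The 3 mutant embryos were PrxCre/+;Smarcc1c/c and the 2 control embryos were Prx+/+;Smarcc1c/c, so the controls carried the conditional Smarcc1 allele as well, without Cre. All were at E11.5 with 40 to 48 somites, and a library holds 50K cells taken from both forelimbs of a single genotyped embryo. Prx-Cre acts in limb mesenchyme and leaves the ectoderm, the vessels, blood and the immigrating muscle precursors of the bud unrecombined. The product of Smarcc1, BAF155, is part of the core of BAF, the mammalian SWI/SNF remodeller. A peak list cannot show the deletion of the conditional exons, so the genotype labels were not checked at the locus itself.

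The deposited values are 1 peak list per library, so a region either has a peak in a library or has none, and the read depth is unknown. On chromosomes 1 to 19 the mutant lists held 35988, 42185 and 26581 peaks in mutants 1, 2 and 3, against 68009 and 59252 in controls 1 and 2. The lowest fold enrichment in a list was 2.47, 2.46 and 2.52 in the mutants and 2.43 and 2.29 in the controls, and openness below that level goes unseen. Because the tissue is a mixture, fewer cells with an open site and a less open site in every cell cannot be told apart. Gene ends of 5 limb mesenchyme markers held a peak for 5, 5 and 3 genes in mutants 1, 2 and 3 and for all 5 in both controls. Prrx1, Twist1 and Pdgfra had one in every library, and Prrx2 and Tbx5 had none in mutant 3. Of the hindlimb genes, Tbx4 and Isl1 had one in every library, and Pitx1 had one in all but mutant 3. For muscle precursors the number was 4, 5 and 1 of 6 genes in the mutants and 6 and 5 in the controls, and for limb ectoderm 6, 5 and 5 of 9 in the mutants and 7 and 8 in the controls. For endothelium it was 4 in each mutant of 9 genes, against 6 and 4 in the controls, for neural crest and glia 4, 6 and 4 of 6 against 5 and 4, and for blood 3 of 6 genes in each of the 5 libraries. Among endothelial genes Kdr, Erg, Sox17 and Sox18 had a gene-end peak in all 5 libraries, and Cdh5, Pecam1 and Emcn had none in any. Among blood genes Tal1, Klf1 and Spi1 had one in all 5 libraries, and Ptprc, Csf1r and Runx1 had none in any. The part of these cell types in the results below was not tested.

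Many developmental genes are controlled by several enhancers that lie close together in introns or in the gene-poor land around the gene, and such groups are known as enhancer clusters or, where they carry much histone acetylation and Mediator, as super-enhancers. Neither mark was measured here, so the clusters are groups of open sites and no more. The BAF complex slides and evicts nucleosomes, and it is known for keeping enhancers open more than promoters. In the limb bud, clusters of this kind flank patterning genes such as Hand2, Tbx5 and the Hox genes, where separate elements act in separate domains of the bud.

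The clusters held a median of 6 members and at most 38. Groups of exactly 5 made up 219 of them, 99 held 8 or more and 46 held 10 or more. A cluster spanned a median of 28.5 kb, with a range from 6.51 to 169.6 kb, and all spans together came to 14.9 Mb, of which the members covered 3.18 Mb. Members covered a median of 19.9% of a span, and the gap between neighbours had a median of 3.57 kb. Widths are those of regions merged over all 5 libraries, so a mutant peak can widen a region that is kept. By this measure members were wider than the other distal regions, with a median of 821 bp against 671 bp. Members also lay closer to a gene end, with a median of 20.2 kb against 26.2 kb. Their strength in the controls, the mean percentile of the authors' fold in the 2 control lists, was alike, at a mean of 53.3 for members and 53.1 for the others. The strongest member lay inside the body of a protein-coding gene in 290 clusters and outside genes in 186. In 170 clusters (35.7%) at least 1 gene end lay within the span. A cluster is said below to lie in a gene when its strongest member did, also where its span crossed a gene end.

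The sequence of most members could not be read, since no genome of this build was used here. RefSeq windows of 250 bases before to 50 bases after an annotated start (build GRCm38.p6, the coordinates of mm10) lay whole inside 145 members, 172 windows in all, and they are the only stretches of members that can be shown. They mark starts of non-coding RNAs and alternative starts within genes, since ends of protein-coding genes were left out by the rule. The windows below were taken by strength in the controls, the 3 strongest of members with a peak in all mutants and then the 3 strongest of members with a peak in no mutant, and the window of Tbx4 was added for its place in limb identity. Capitals mark CG dinucleotides, the sites of DNA methylation, and each window is written 5′ to 3′ on the strand of its transcript.
Ptprs: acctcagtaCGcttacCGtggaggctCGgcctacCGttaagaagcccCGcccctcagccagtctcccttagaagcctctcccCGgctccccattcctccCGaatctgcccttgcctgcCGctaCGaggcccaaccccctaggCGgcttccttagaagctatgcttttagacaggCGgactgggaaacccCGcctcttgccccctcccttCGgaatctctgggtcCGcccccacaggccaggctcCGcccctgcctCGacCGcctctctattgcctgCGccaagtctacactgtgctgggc
Ccdc12: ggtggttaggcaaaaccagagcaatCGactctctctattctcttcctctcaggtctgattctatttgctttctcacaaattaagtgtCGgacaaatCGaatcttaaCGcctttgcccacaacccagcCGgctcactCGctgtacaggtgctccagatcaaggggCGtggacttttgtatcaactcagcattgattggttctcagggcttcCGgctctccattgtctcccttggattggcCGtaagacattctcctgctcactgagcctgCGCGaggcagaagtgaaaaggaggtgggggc
Gm10433: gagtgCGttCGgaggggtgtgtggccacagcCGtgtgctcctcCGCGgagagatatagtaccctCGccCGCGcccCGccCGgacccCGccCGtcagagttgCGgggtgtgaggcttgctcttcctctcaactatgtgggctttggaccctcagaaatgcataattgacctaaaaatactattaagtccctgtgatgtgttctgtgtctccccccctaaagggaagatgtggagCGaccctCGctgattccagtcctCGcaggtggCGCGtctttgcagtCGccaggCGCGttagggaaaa
Trak1: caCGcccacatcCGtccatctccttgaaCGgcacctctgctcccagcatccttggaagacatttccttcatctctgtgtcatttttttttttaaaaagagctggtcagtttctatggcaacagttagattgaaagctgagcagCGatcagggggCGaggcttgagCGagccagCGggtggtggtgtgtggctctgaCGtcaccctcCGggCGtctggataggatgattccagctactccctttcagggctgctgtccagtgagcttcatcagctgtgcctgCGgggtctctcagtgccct
Gm35551: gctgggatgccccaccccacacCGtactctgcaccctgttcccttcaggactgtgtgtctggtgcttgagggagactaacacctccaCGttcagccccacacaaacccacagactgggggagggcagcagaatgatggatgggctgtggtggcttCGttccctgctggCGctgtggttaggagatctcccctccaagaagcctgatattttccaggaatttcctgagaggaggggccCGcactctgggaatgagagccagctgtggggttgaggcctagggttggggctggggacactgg
Gm12829: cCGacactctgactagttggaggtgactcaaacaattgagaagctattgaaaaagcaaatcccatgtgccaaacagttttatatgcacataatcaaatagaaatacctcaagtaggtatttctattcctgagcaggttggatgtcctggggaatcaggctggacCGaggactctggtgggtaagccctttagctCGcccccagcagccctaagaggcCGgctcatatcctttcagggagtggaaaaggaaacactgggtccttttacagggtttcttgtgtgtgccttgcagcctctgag
Tbx4: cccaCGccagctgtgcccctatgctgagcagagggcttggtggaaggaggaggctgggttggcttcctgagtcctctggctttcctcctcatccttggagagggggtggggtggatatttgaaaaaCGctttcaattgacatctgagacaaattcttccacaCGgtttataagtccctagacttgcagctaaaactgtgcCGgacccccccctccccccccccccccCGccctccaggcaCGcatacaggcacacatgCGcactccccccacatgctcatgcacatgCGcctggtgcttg

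The first 3 windows lie at chr17:56462172-56462471 on the minus strand (Ptprs, a receptor tyrosine phosphatase), chr9:110656253-110656552 on the plus strand (Ccdc12, a spliceosome protein) and chr12:100187718-100188017 on the plus strand (the non-coding RNA Gm10433). The Ptprs member had a fold of 15.3, 15.1 and 16.1 in mutants 1, 2 and 3, against 16.6 and 18.999 in controls 1 and 2. At Ccdc12 the folds were 11.1, 12.3 and 8.24 in the mutants and 13.2 and 14.1 in the controls. At Gm10433 they were 11.6, 11.8 and 10.8 in the mutants and 13.0 and 14.01 in the controls. Each fold is the authors' own value within its list and is not scaled between libraries. The other windows lie at chr9:121403196-121403495 on the plus strand (Trak1, an adaptor of mitochondrial transport), chr17:84044537-84044836 on the minus strand (the non-coding RNA Gm35551), chr4:114680090-114680389 on the plus strand (the non-coding RNA Gm12829) and chr11:85896515-85896814 on the plus strand (Tbx4, the T-box factor of hindlimb identity). Their members had folds of 4.16 and 4.99 in the controls at Trak1, 4.33 and 4.18 at Gm35551, the same values at Gm12829, and 3.47 and 3.50 at Tbx4, and no mutant list held a peak in any of them. The windows absent from the mutants thus belonged to members far weaker in the controls than the first 3. The Tbx4 window lies in a member over 1 kb from any gene end. At a gene end of Tbx4 a peak stood in all 5 libraries, those of the mutants included.

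The first 3 windows held 18, 11 and 21 CG sites, and the other 4 held 11, 5, 4 and 8. Over all 126 windows in members present in every mutant, the median ratio of observed to expected CG sites was 0.627, over the 39 windows in members present in 1 or 2 mutants it was 0.308, and over the 7 windows in members absent from all mutants it was 0.232. The other distal regions had the same order, with 0.702 over 1436 windows present in all mutants and 0.260 over 105 windows absent from all. The letters of the KLF/SP motif, GGGCGGG on either strand, stood in 42.1% of the 126 windows, in 17.9% of the 39 and in 28.6% of the 7. It stood in 43.7% of the 1436 windows of other distal regions present in all mutants, in 8.57% of the 105 absent from all and in 25.8% of all 31396 windows of the table. The KLF/SP motif itself holds a CG site, so both measures share letters. It is 1 of several motifs counted, and they did not all go this way. The E-box letters, CAGCTG, stood in 15.9% of the 126 windows, 35.9% of the 39 and 42.9% of the 7. In the other distal regions they stood in 15.4% of the 1436 windows and 31.4% of the 105. The ETS letters, CCGGAA, stood in 17.5% of the 126, 5.13% of the 39 and 0% of the 7. In the other distal regions the ETS letters stood in 21.0% of the 1436 windows and 7.62% of the 105. They too hold a CG site and share letters with the CG ratio.

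A start went with a kept member. Of the 3155 members, 171 (5.42%) held an annotated start, and 84.8%, 91.2% and 67.3% of these had a peak in mutants 1, 2 and 3. The 2984 members without a start had one in 56.7%, 63.7% and 33.0%. Members with a start were also stronger in the controls, with a mean percentile of 69.9 against 52.3.

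Hairpins of 14 microRNAs lay inside 10 members, of which 4 had a peak in all 3 mutants (those with Mir6999, Mir1905, Mir7687 and Mir8107) and 6 had one in 2 mutants. Over all members, 31.4% had a peak in all 3 mutants, 22.7% in 2 and 27.2% in none. Hairpins also lay inside 35 of the other distal regions. In the cluster nearest Zswim4, a member at chr8:84207778-84209201 held the hairpins of Mir23a, Mir27a and Mir24-2, which are made from 1 transcript. Its fold was 3.24 in mutant 1 and 3.94 in mutant 2, with no peak in mutant 3, and 3.29 and 2.83 in the controls. Members with Mir9-3 (nearest Polg) and Mir137 (nearest Dpyd) also had a peak in mutants 1 and 2 and none in mutant 3. Parts of Mir330 (nearest Gipr) and Mir326 (nearest Arrb1) lay in members with a peak in mutant 1 alone and in mutant 2 alone. The mature forms below are from RefSeq (GRCm38.p6), with the seed, bases 2 to 8, in capitals, and the last 2 share a seed.
miR-23a-3p: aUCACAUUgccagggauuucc
miR-27a-3p: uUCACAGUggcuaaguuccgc
miR-24-3p: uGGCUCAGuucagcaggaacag
miR-9-5p: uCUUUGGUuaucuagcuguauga
miR-137-3p: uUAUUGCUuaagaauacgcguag
miR-326-3p: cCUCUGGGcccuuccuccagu
miR-330-5p: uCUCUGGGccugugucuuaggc

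The first question was whether open sites in dense clusters fared in the mutants as other distal sites did. A member is called kept in a mutant when that mutant's list has a peak in it. Mutants 1 and 2 kept members more often than other distal regions, and mutant 3 did so by little. Mutants 1, 2 and 3 kept 1838, 2056 and 1101 of the 3155 members, which is 58.3%, 65.2% and 34.9%. Of the other distal regions they kept 45.9%, 45.1% and 32.0%. The mean share of members kept was 52.8%. Clusters rebuilt under other settings hold other members. From lists of equal length the mean share was 79.9% over 171 members, and without control 2 it was 32.6% over 12014. For the 3155 members as reported, the difference to the other distal regions was 12.3, 20.02 and 2.87 percentage points. Its average was 11.7 ± 8.6 points (SD, n = 3), with members higher in 3 of 3 mutants. An exact two-sided sign-flip test over the mutants gave p = 0.25, the smallest value that 3 libraries allow. With the other regions weighted to the members' make-up by strength, the difference was 11.6, 19.3 and 1.91 points, 10.9 ± 8.7 on average (exact sign-flip p = 0.25, n = 3). Further classing by distance to a gene end, chosen after seeing the data, left 9.51, 16.7 and 0.40 points. The unweighted mean difference was 7.57 points without mutant 2 and 5.59 points with clusters and controls taken without control 2, and it stayed above 0 without any 1 library.

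Fewer members than other distal regions were lost from every mutant. Absent from all 3 mutants were 857 members (27.2%), against 12100 other distal regions (43.7%), where the share over all distal control regions was 42.1%. With regions taken from 1 control the set of members was larger. The number absent was then 6178 of 12014 members without control 2 and 3127 of 7544 without control 1. Present in all 3 mutants were 991 members (31.4%), against 7097 of the others (25.7%), where the share over all was 26.2%. A further 592 members had a peak in 1 mutant and 715 in 2.

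The share kept went up with the number of regions in the joined group, also below the threshold of 5. Of the 14815 distal regions that stood alone, 42.7%, 40.6% and 30.8% had a peak in mutants 1, 2 and 3. In groups of 4, just under the threshold, it was 54.0%, 57.4% and 35.6%, and in groups of 5, just over it, 55.0%, 61.1% and 33.2%. In groups of 10 or more it was 60.0%, 69.9% and 32.3%. Mutants 1 and 2 thus kept more with size, most steeply in mutant 2, while mutant 3 stayed between 30.8% and 36.5% except for 44.1% in groups of 7. The share absent from all mutants was 47.9% for lone regions, 33.8% in groups of 4, 29.2% in groups of 5 and 23.8% in groups of 10 or more. Mean strength percentile ran only from 52.5 to 55.9 over these sizes, while median width ran from 648 bp for lone regions to 890 bp in groups of 10 or more. This is the width of the merged region, which peaks of the mutants can add to. The part of width in this order was not tested. Classing by strength and by the width of the widest control peak, chosen after seeing the data, gave differences between members and others of 10.4, 17.6 and 1.70 points.

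**Figure D1:**
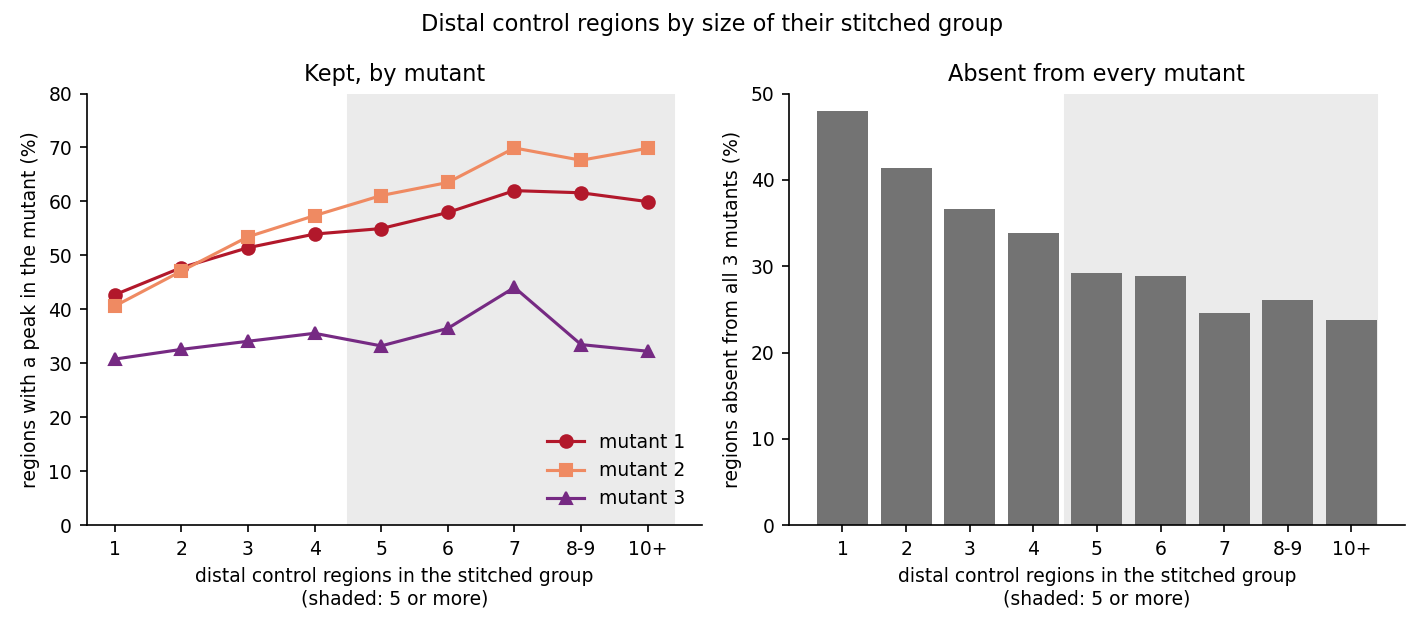
Share of distal control regions with a peak in each mutant (left, %, lines for mutants 1, 2 and 3) and share absent from all 3 mutants (right, %, bars), by number of regions in the joined group, with groups of 5 or more shaded. Mutants 1 and 2 lie higher in larger groups, mutant 3 is nearly flat, and absence from all mutants is 47.9% for lone regions and 23.8% in groups of 10 or more.

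At equal strength in the controls, the members of mutants 1 and 2 stood above the other regions in each of 10 strength classes. In the weakest class mutants 1, 2 and 3 kept 21.7%, 35.8% and 4.05% of members, against 13.7%, 17.1% and 5.12% of the other regions. In class 8 they kept 81.9%, 84.4% and 51.6% of members, against 60.7%, 57.3% and 44.5% of the others. In the strongest class the values were 98.6%, 97.4% and 91.2%, against 93.7%, 90.6% and 87.0%. Mutant 3 kept a smaller share of members than of others in classes 1 to 4 and 6. In the strongest class 0 of 351 members were absent from all mutants, against 4.39% of the 2731 others.

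**Figure D2:**
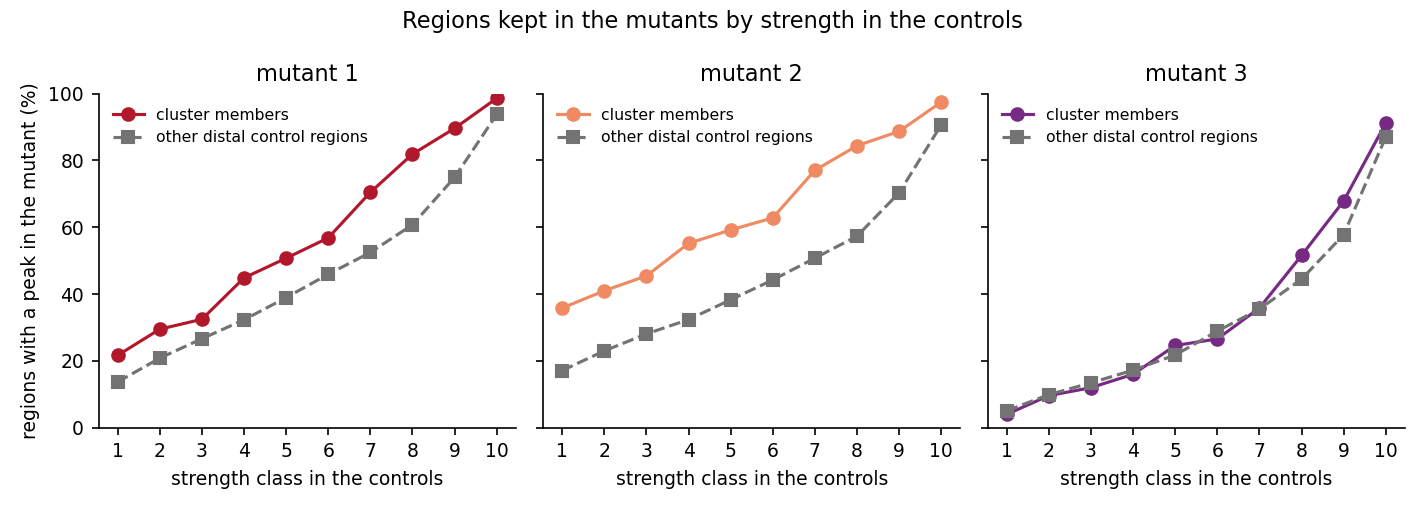
Share of regions with a peak in mutant 1, 2 and 3 (panels, %), by strength class in the controls (1 weakest, 10 strongest), for cluster members (solid) and the other distal control regions (dashed). Members lie above the others in every class of mutants 1 and 2, and in mutant 3 both lines nearly coincide up to class 7.

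The second question was how whole clusters fared. Of the 476 clusters, 10 had a peak at every member in all mutants, and 7 had none at any member in any mutant. In 283 clusters (59.5%) at least 1 member was present in all mutants while another was absent from all. The share of members kept, averaged over the mutants, had a median of 53.3% per cluster and ran from 0 to 100. It was under 50% in 206 clusters (43.3%), where the same share among the 5349 joined groups of 2 to 4 was 49.2%. Without mutant 3 it was under 50% in 123 clusters. The number of clusters itself rested on having both controls, with 1580 without control 2 and 1032 without control 1, of which 1266 and 708 were under 50%.

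Clusters that still met the rule were fewest in mutant 3. All 476 met it in the controls by choice, so in a mutant the number could only stay the same or fall. The 219 clusters of exactly 5 members fail the rule on losing any member. Built from kept members alone, 131, 169 and 40 clusters still met the rule in mutants 1, 2 and 3, which is 27.5%, 35.5% and 8.40% of the 476. In all 3 mutants 33 clusters did so, and 283 did so in none. Every member was kept in 40, 68 and 17 clusters of mutants 1, 2 and 3, and no member in 14, 15 and 81. Mutant 3 kept fewer members than either of the other mutants in 313 clusters. Among the 99 clusters of 8 or more members, 60, 70 and 15 still met the rule, and 72 were mixed in the above sense.

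**Figure D3:**
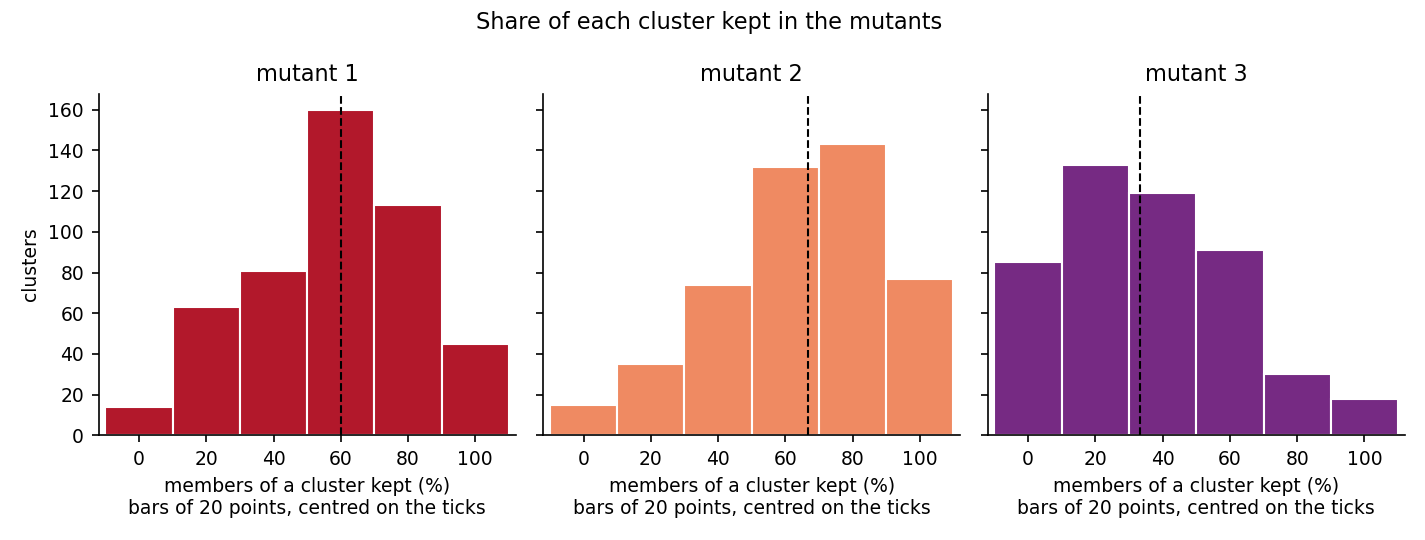
Number of clusters (y axis) by share of members kept in mutants 1, 2 and 3 (x axis, %, bars 20 points wide), with the median as a dashed line at 60.0%, 66.7% and 33.3%. Clusters spread over the whole range in each mutant, and 81 clusters of mutant 3 kept no member.

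The 10 clusters kept whole were small apart from 2. Those with at least 8 members were a cluster of 14 at the first assembled bases of chromosome 9 (chr9:2999879-3038355), next to the centromere, and one of 8 in Mroh2a (chr1:88223043-88253210). The others, of 5 to 7 members, were nearest Pecr, Camkk1, Tmem267, Pcca, Zfp982, Ppp1r12c, Ccdc9 and Ltbp4, of which Ltbp4 binds latent TGF-beta. The span of the Pcca cluster lies within 50 kb of Zic2 and Zic5, zinc finger factors of neural and axial patterning. The 7 clusters lost whole had 5 or 6 members, and among them were those in Srgap1, Rbfox3 and Etv6, of 5 members each. Also among them were those nearest Nos1ap, of 5 members, and nearest Usp25 and Dipk1c, of 6 members each. Srgap1 acts in Slit-Robo guidance of migrating cells, Rbfox3 is a neuronal splicing factor and Etv6 is an ETS repressor. Apart from Mroh2a and chromosome 9, these genes were named after their values were seen.

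Within a cluster, strength in the controls went with being kept. The strongest member had a peak in 88.4%, 87.8% and 69.3% of the 476 clusters in mutants 1, 2 and 3, and the weakest in 27.9%, 40.1% and 12.0%. The strongest was absent from all mutants in 31 clusters and the weakest in 235. Place in the cluster mattered little: the 952 outermost members were kept at 59.0%, 62.9% and 35.8% and the 2203 inner ones at 57.9%, 66.1% and 34.5%. Across clusters, the share kept in mutants 1, 2 and 3 had a Pearson correlation of 0.49, 0.39 and 0.56 with the mean strength of the members (n = 476 clusters, which share the 5 libraries).

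The 10 clusters with the most members held 210 members, of which mutants 1, 2 and 3 kept 126, 160 and 60. In each of the 10, mutant 3 kept the fewest. Their mean share kept ran from 40.4% to 71.1%, on both sides of the median of all clusters. Of the 210 members 58 were present in all mutants and 42 absent from all, where the shares over all members were 31.4% and 27.2%.

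The most extensive was a pair of clusters in the body of Gse1, which encodes a coiled-coil protein. The first spanned chr8:120256978-120426611 with 38 members, and the second chr8:120439199-120571025 with 34. The gap between them was 12.587 kb, just over the limit, and the pair together held 72 members over 314.05 kb. The nearest gene end to the strongest member was that of Gse1 for the first and of Gins2, a replication factor, for the second. Mutants 1, 2 and 3 kept 17, 30 and 8 members of the first and 19, 23 and 8 of the second. All 3 mutants kept 8 members of each, and 7 and 11 were absent from all. The strongest member present in all (chr8:120275133-120278035) had folds of 9.26, 11.3 and 9.59 in the mutants and 13.9 and 12.8 in the controls. The strongest absent from all lay in the second cluster (chr8:120465450-120466207), with folds of 6.24 and 4.31 in the controls. A member of the second cluster, chr8:120531814-120540680, held the hairpin of Mir7687 and had folds of 6.02, 6.73 and 4.71 in the mutants and 10.6 and 7.28 in the controls.

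**Figure D4:**
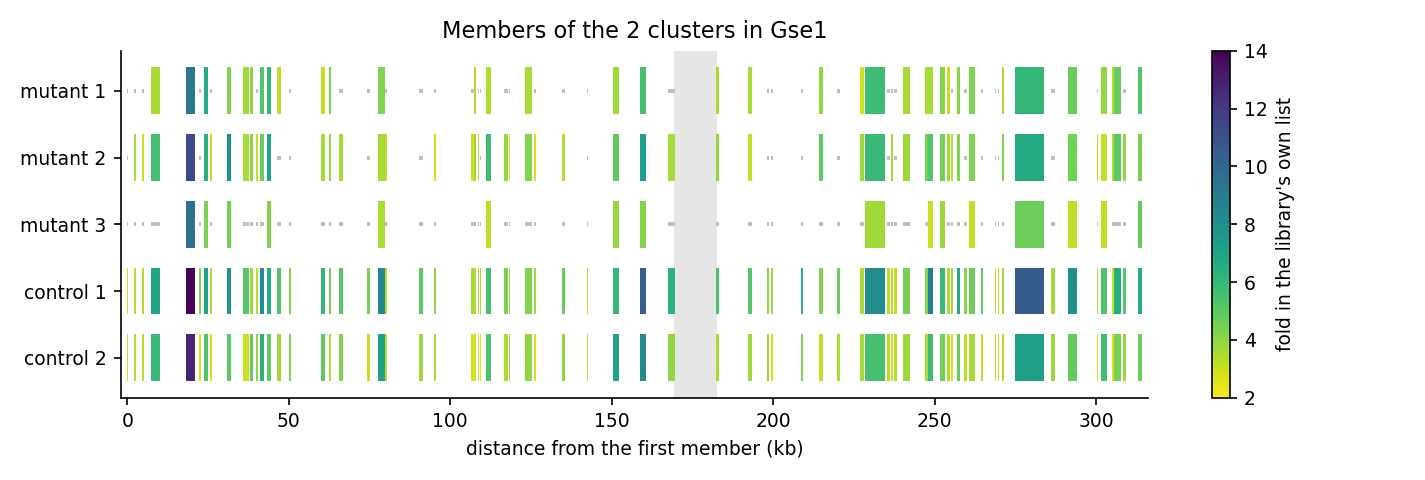
Members of the 2 clusters in Gse1 in 5 libraries (rows, mutants 1 to 3 above controls 1 and 2), by distance from the first member (kb), with bars where the library has a peak, coloured by fold in its own list, and thin grey marks where it has none. The grey band is the gap of 12.587 kb between the clusters. Mutant 2 has 53 of the 72 members, mutant 1 has 36 and mutant 3 has 16.

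Among the other large clusters were those of known limb and signalling genes. The cluster in and around Lmx1b, the LIM homeobox factor of the dorsal limb (chr2:33542850-33649430, 20 members), kept 12, 17 and 7 members in mutants 1, 2 and 3. In it the strongest member present in all mutants had folds of 4.63, 4.11 and 3.03 in the mutants and 6.42 and 4.85 in the controls. The cluster in Vgll4, a cofactor of TEAD factors (20 members), kept 12, 16 and 7. The cluster in Nfix, a nuclear factor I gene, had its nearest gene end at Lyl1 (15 members) and kept 12, 14 and 6.

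The remaining large clusters had less in common. The cluster in Tcf20, a transcriptional coregulator (19 members), kept 8, 13 and 2, the lowest mean share of the 10 at 40.4%. The cluster nearest Pex14, a peroxisomal import factor, reached into Casz1, a zinc finger factor (18 members), and kept 13, 13 and 7. Those nearest Actrt2 (16 members), in Tns1, which encodes the adhesion protein tensin (15 members, nearest end Rufy4), and nearest Smug1, a DNA repair enzyme (15 members), kept 11, 9 and 4, then 10, 13 and 3, then 12, 12 and 8.

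Among clusters of 8 or more members, the 6 with the highest share kept were those at the start of chromosome 9 (14 of 14 in each mutant) and in Mroh2a (8 of 8 in each), followed by 4 others. The cluster in Dnm3, a dynamin (9 members), kept 9, 9 and 7 in mutants 1, 2 and 3. The cluster nearest Calcoco1 (chr15:102734873-102762222, 8 members) kept 8, 8 and 6. The cluster in Sfi1 near the first assembled bases of chromosome 11 (chr11:3123049-3200141, 12 members) kept 11, 10 and 11, and the one nearest 1700001O22Rik (10 members) kept 9, 10 and 7. Of these 6, the clusters on chromosomes 9 and 11 had the highest folds: their strongest members had 19.3, 19.1 and 21.4 in the mutants and 18.2 and 16.8 in the controls on chromosome 9, and 22.4, 23.8 and 23.5 in the mutants and 23.9 and 20.9 in the controls on chromosome 11. Without both of these clusters, a choice made after seeing the data, members exceeded other regions by 12.0, 19.8 and 2.36 points. The Mroh2a cluster was the most densely covered of all, with 80.7% of its span.

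In each of the 6 with the lowest share, the strongest member lay in the body of the gene that named the cluster. The spans of the Crocc2 and Camk2a clusters held 2 gene ends and 1. Ccdc88c, a regulator of WNT and G protein signalling (8 members), kept 0, 1 and 1 in mutants 1, 2 and 3. Crocc2, related to the ciliary rootlet protein (10 members), kept 1 in each. Fyn, a Src family kinase (10 members), kept 2, 1 and 0. None of these clusters had a member present in all mutants. Prdm16, a zinc finger regulator of cell fate (12 members), kept 0, 4 and 0. Camk2a, a calcium-dependent kinase (8 members), kept 2, 1 and 0, and Nfatc1, a calcium-responsive transcription factor (8 members), kept 1, 2 and 0. The strongest lost members had folds of 4.85 and 4.31 in the controls at Ccdc88c (chr12:100995795-100996883), 5.72 and 3.64 at Crocc2 and 5.55 and 4.58 at Fyn. Mean strength of the members lay at the 22.3 percentile in the Camk2a cluster and at 36.4 to 52.3 in the other 5.

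The third question was which genes of limb development lay next to clusters. By the nearest gene end to the strongest member, 53 clusters went to genes of 9 lists. For comparison, all clusters had a median share kept of 53.3%, and 27.2% of all members were absent from every mutant. Nearest gene does not mean target gene, and the lists share members such as Tbx5 and Hand2.

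Clusters of limb patterning transcription factors were kept at a median of 72.8% (10 clusters), and 9 of the 10 lay above the median of all clusters. Of their 82 members, 10 (12.2%) were absent from all mutants. Mutants 1, 2 and 3 kept 72.0%, 84.1% and 45.1% of these members. Hand2, the factor of posterior limb identity (chr8:57312041-57354229, 9 members), kept 7, 8 and 6. There the strongest member kept by all (chr8:57353247-57354229) had folds of 8.79, 7.88 and 5.38 in the mutants and 9.36 and 9.84 in the controls. Tbx5, the T-box factor that starts the forelimb, had 2 clusters. The one of 9 members in the gene (chr5:119820718-119845563) kept 7, 7 and 2, and the other, of 5 members, kept a mean of 33.3%, the one below the median. Hoxa11, which patterns the middle segment of the limb (chr6:52235802-52277169, 11 members), kept 8, 8 and 3. The highest shares were at Tbx15 (88.9%), Lhx2 (86.7%) and Lhx9 (83.3%), LIM homeobox and T-box factors of limb outgrowth and the limb skeleton.

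Clusters of limb mesenchyme genes were kept at a median of 55.6% (7 clusters), with 5 above and 2 below the median of all clusters. Of their 46 members, 11 (23.9%) were absent from all mutants. Ebf3, an early B-cell factor expressed in mesenchyme (7 members), kept 5, 7 and 4 in mutants 1, 2 and 3, and Nfia (6 members) kept 4, 5 and 2. Prrx2, a paired homeobox factor (8 members), kept 7, 5 and 1, and Zeb2, a zinc finger repressor (5 members), kept a mean of 6.67%. Cartilage and bone genes had a median of 66.7% (7 clusters), with 6 of 7 above, and 11 of their 44 members (25%) were absent from all. Mef2c, a factor of chondrocyte maturation (7 members), kept 5, 5 and 4, Runx3, a runt factor (8 members), kept 5, 6 and 2, and Pth1r, the receptor of parathyroid hormone-related protein (8 members), kept 4, 5 and 4. Runx1 (6 members) was the one below, with 2, 2 and 1.

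Clusters of Hedgehog pathway and target genes had a median of 46.7% (9 clusters, 56 members), with 3 above and 5 below the median of all clusters, and 21 of the 56 members were absent from all mutants (37.5%). A single cluster, in Gli2, held 9 of the 21, and without it 12 of 44 (27.3%) were absent, close to the 27.2% of all members. The lowest value of the list was at Gli2, a transcriptional effector of Hedgehog signalling. Its cluster in the gene body (chr1:118878008-118940744, 12 members) kept 2, 2 and 1 in mutants 1, 2 and 3, with 9 absent from all, and a second one of 5 members outside the gene kept 2, 2 and 1. The strongest lost member in the gene body (chr1:118878008-118879336) had folds of 5.37 and 4.99 in the controls. The strongest kept one (chr1:118901383-118902837) had folds of 4.63, 3.61 and 3.53 in the mutants and 7.11 and 8.89 in the controls. Gli3, the source of the main GLI repressor (5 members), kept a mean of 53.3%, Cntfr, a cytokine receptor subunit, 60.0%, and the secreted kinase gene Pkdcc 66.7%. Jag1, a Notch ligand, and Foxf1, a forkhead factor, kept 26.7% and 33.3%.

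Among the other signalling lists, BMP genes had a median of 53.3% (7 clusters), and 11 of their 52 members (21.2%) were absent from all. Smad7, an inhibitor of BMP and TGF-beta signalling (12 members), kept 10, 10 and 1 in mutants 1, 2 and 3. The 2 clusters nearest Smad6, its BMP-specific relative, kept 3, 6 and 2 of 7 members and 4, 7 and 4 of 9, and Gdf6, a ligand of joint formation (7 members), kept 4, 3 and 4. WNT genes had a median of 51.7% (6 clusters), spread widely, and 11 of their 34 members (32.4%) were absent from all. Axin2, a feedback inhibitor and WNT target (6 members), kept 5, 6 and 5. Ror2, a WNT5A receptor (6 members), kept 4, 6 and 2, the receptor gene Fzd2 (6 members) 3, 5 and 1, and the ligand gene Wnt11 (6 members) 1, 2 and 1.

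Retinoic acid genes had a median of 61.3% (6 clusters), and 4 of their 37 members (10.8%) were absent from all. The receptor gene Rara (8 members) kept 5, 8 and 2, the partner receptor gene Rxra (8 members) 6, 6 and 3, and the orphan receptors Nr2f1 (5 members) and Nr2f2 (6 members) 3, 4 and 2 and 4 in each mutant. Below the median lay a second cluster of Rxra (5 members), with 1, 4 and 0 kept, and that of Dhrs3, a retinal reductase (5 members), with 1, 3 and 3 kept. FGF genes had 2 clusters, at Il17rd, an inhibitor of FGF signalling (7 members, 5, 6 and 2 kept), and at the ligand gene Fgf18 (5 members, 1, 3 and 0 kept). BAF subunit genes also had 2, in Arid1b (9 members, 6, 5 and 2 kept) and in Bcl11b (8 members, 5, 5 and 1 kept). Counted instead by any listed gene within 50 kb of the span, 57 clusters went to the lists and several medians moved. Limb patterning then had 66.1%, limb mesenchyme 55.6%, retinoic acid 61.3%, FGF 61.9% and BMP 53.3%. Cartilage and bone had 54.2%, BAF 45.8%, Hedgehog 40% and WNT 36.1%.

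The fourth question was how members fared in a control that had not chosen them. Clusters were therefore rebuilt from 1 control at a time, with both sets of regions measured in the other control and the mutants. From control 1 alone there were 1488 clusters with 11280 members, of which mutants 1, 2 and 3 held 35.9%, 42.3% and 21.6% and control 2 held 59.5%. From control 2 alone there were 947 clusters with 6786 members, of which the mutants held 45.1%, 52.7% and 27.0% and control 1 held 73.6%. The mutants lay below the held-out control in both cases, by 26.2 and 32.0 points on average (exact two-sided permutation test of 3 mutants against 1 control, p = 0.25 each, the smallest value it allows).

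The difference between members and the other distal regions had opposite signs in the mutants and in the held-out control. With clusters from control 1 it was 5.33, 11.9 and 0.53 points in mutants 1, 2 and 3 and -4.06 points in control 2. With clusters from control 2 it was 8.65, 16.9 and 1.76 points in the mutants and -2.54 points in control 1. The means over the mutants were 5.94 ± 5.73 and 9.09 ± 7.55 points (SD, n = 3), and an exact permutation test, chosen after the values were seen, of mutants against the held-out control gave p = 0.5 in both cases (n = 3 and 1).

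**Figure D5:**
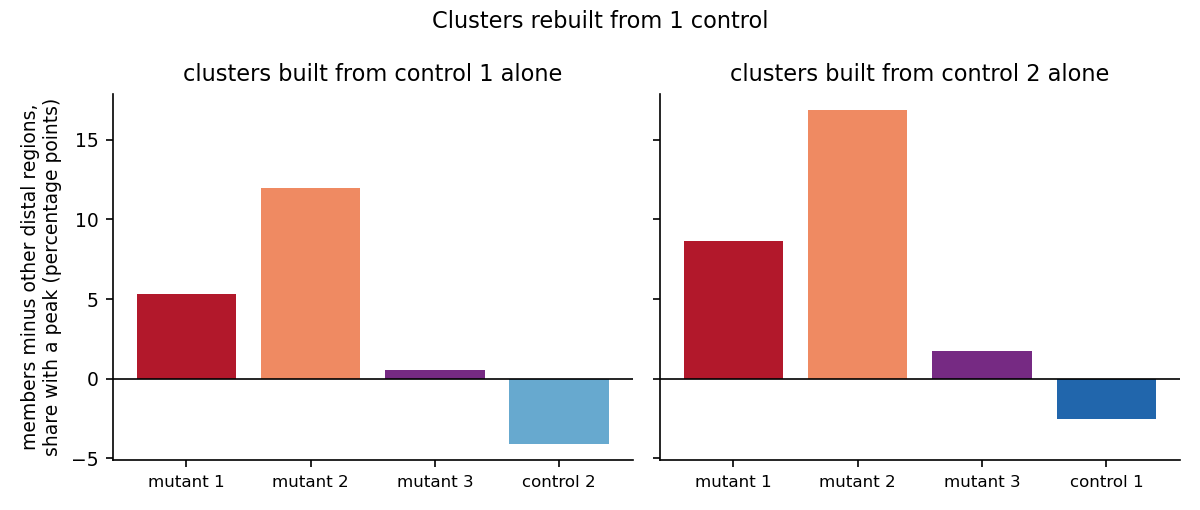
Share of cluster members with a peak minus the share of other distal regions (y axis, percentage points) in mutants 1, 2 and 3 and in the control that did not build the clusters, for clusters from control 1 alone (left) and from control 2 alone (right). All mutants lie above 0, mutant 3 by at most 1.76 points, and both held-out controls lie below 0.

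The gap to the held-out control was smaller at equal list length. For each mutant, the held-out control was cut to as many of its strongest peaks as the mutant had. At members, the difference to control 2 was then -2.83, -3.33 and -5.46 points in mutants 1, 2 and 3, and the difference to control 1 was -3.37, -2.52 and -7.44 points. At the other distal regions it was -12.2, -19.7 and -8.53 points to control 2 and -13.9, -22.1 and -9.70 points to control 1. All 12 differences were below 0, and in each of the 6 pairs the one at members was the smaller in size. The pairs share libraries, since each of the mutants was set against both controls, so they are not independent.

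Clusters built from each library by itself gave another view. At their own lengths the lists of mutants 1, 2 and 3 formed 297, 773 and 58 clusters, against 1488 and 947 in controls 1 and 2 (difference of means -841.5, exact permutation p = 0.2, n = 3 and 2). With every list shortened to its strongest 26581 peaks, a comparison added after seeing the data, the mutants formed 93, 170 and 60, against 70 and 63 (difference 41.2, exact permutation p = 0.6, n = 3 and 2), so the sign turned. The share of distal regions in such clusters was then 4.94%, 9.21% and 4.39% in the mutants, against 2.87% and 2.60% in the controls (exact permutation p = 0.2, n = 3 and 2, where the smallest possible value is 0.1). At this equal length the largest cluster held 23 of 637, 24 of 1172 and 92 of 514 members in mutants 1, 2 and 3. In controls 1 and 2 it held 13 of 422 and 16 of 382. The part of single large clusters in these shares was not tested. In number of clusters and in share, mutant 2 stood above the other mutants at both lengths.

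Gene ends inside the clusters were kept far more than the members around them. The spans held 182 gene-end regions present in both controls, and mutants 1, 2 and 3 kept 90.7%, 94.5% and 73.1% of them, close to the 91.3%, 93.3% and 83.2% of the 13391 gene-end regions elsewhere except in mutant 3. These gene-end regions were also stronger in the controls, with a mean percentile of 69.7 against 53.3 for members, and 78.0 for gene-end regions elsewhere. In the other direction, 692 regions inside the spans had a peak in no control. Of these 176, 527 and 37 had one in mutants 1, 2 and 3, and only 2 had one in all mutants. Mutant 2 held 76.2% of them, against 73.5% of the 10167 regions of the whole series with a peak in no control, a similar share.

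Clusters were spread unevenly over the genome. Chromosome 4 had the highest share of its distal control regions in clusters (18.5%, 61 clusters) and chromosome 14 the lowest (5.76%, 13 clusters). The share of members kept, averaged over the mutants, was lowest on chromosome 16 (37.5% ± 9.9, SD, n = 3) and highest on chromosome 7 (61.1% ± 15.6, SD, n = 3). Each mutant kept more on chromosome 7, by 18.998, 35.3 and 16.6 points in mutants 1, 2 and 3. These chromosomes were picked for their values, so no test was made. By distance, members 1 to 5 kb from a gene end were kept at 70.1%, 76.4% and 43.8% in mutants 1, 2 and 3, against 63.2%, 67.7% and 46.0% of other distal regions. Over 100 kb away it was 47.5%, 54.3% and 25.7%, against 30.9%, 26.2% and 20.6%. Members thus exceeded the others most far from genes, by 16.6, 28.1 and 5.08 points.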

How the data were processed

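Each of the 5 libraries has 1 deposited narrowPeak list on mm10. Per the submitters' processing notes the authors used bcl2fastq 2.20.0, Bowtie2 2.3.5 and MACS2; the MACS2 version and options, duplicate removal and any cut-site shift are not stated in those notes or labels. The fold enrichment of each peak and its −log10 p and −log10 q are the authors' values as deposited, called per library and not scaled between libraries. Read depth is unknown, so no counting interval is given.

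Regions were merged at 1 bp of overlap on chromosomes 1 to 19. Distances are to the ends of 20665 protein-coding RefSeq genes (GRCm38.p6). Strength is the mean percentile of fold in the 2 control lists, in 10 classes, and the standardised difference weights other distal regions to the members' classes. Shares were computed per mutant and compared by exact two-sided tests over libraries: a sign-flip test over 3 mutants (smallest p 0.25) and permutation tests (smallest p 0.25 for 3 against 1 and 0.1 for 3 against 2, on the absolute difference of means). Python 3.11.15, pandas 2.3.3, numpy 2.4.6, scipy 1.17.1 and matplotlib 3.10.9 were used, and the code was tested on simulated data.

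Clusters named are the 10 with the most members, the 6 with the highest and the 6 with the lowest mean share kept among those of 8 or more members, and up to 4 clusters per gene list, by members. Other list clusters (such as Zeb2, Tbx15, Lhx2, Gli3, Jag1), clusters kept or lost whole, and the printed sequences, which stand in for the planned member sequences, were chosen after their values were seen. The members and lists were chosen with earlier results of these data known. Replicate numbers follow accession order and pair nothing. Each library is 1 embryo. A planned motif comparison over member sequences was not run, since no genome was used here. Alternatives covered overlap, q, list length, gap, cluster size, gene-end distance and leaving out each library.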

Additional observations from a re-analysis of the deposited data

How the results depend on the processing

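On average over the mutants, members exceeded other distal regions in every setting run, and so did the standardised difference. By mutant, the standardised difference ran from 6.19 to 17.1 points in mutant 1, from 12.6 to 24.9 in mutant 2 and from -0.42 (8 or more members) to 12.8 in mutant 3, where it was above 0 in 17 of 18 settings. The counts moved with the settings, and so did the number of members they were taken from. The mean share kept was 52.8% over 3155 members. Clusters rebuilt from lists of equal length gave 79.9% over 171 members. Leaving out a library gave 32.6% (without control 2, 12014 members) to 61.8% (without mutant 3, 3161 members). Against 857 members absent from all mutants in 476 clusters, 206 of them under 50% kept, a −log10 q of at least 5 gave 262 members, 161 clusters and 71 clusters, and one of at least 10 gave 27, 18 and 8. Equal length gave 14, 31 and 4, a gap of 5 kb 159, 129 and 44, and a gap of 25 kb 2492, 1037 and 522. Groups of 4 or more gave 1481, 937 and 410, and groups of 8 or more 264, 99 and 37. Leaving out a library gave 891 to 6178 members, 476 to 1580 clusters and 123 to 1266 clusters under 50%; the highest came without control 2 and the lowest without mutant 3 in each case. Without control 1 they were 3127, 1032 and 708. A stricter q, a shorter gap or a higher minimum number of members leaves fewer regions and clusters by construction, and the cause of the other shifts was not tested. The mutant minus control difference in clusters built from each library turned from -841.5 to 41.2 at equal length (exact permutation p = 0.6). Asking for 50% overlap of either the region or the peak gave the reported values, since each peak lies whole within its merged region. Strength by −log10 p did too, since fold and −log10 p rank the peaks alike, with 0 peaks of unequal rank in each list. Peak lists hold no depth, so loss below the calling threshold and smaller loss cannot be told apart.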

Other observations

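Some stretches, picked after their values were seen, held many peaks whose number varied between libraries of 1 group. On chromosome 2 from 77.8 to 78.1 Mb, mutants 1, 2 and 3 had 26, 72 and 103 peaks and controls 1 and 2 had 89 and 6, and no cluster lay there. On chromosome 1 from 171.5 to 171.62 Mb, the mutants had 39, 41 and 13 peaks and the controls 14 and 35, around a cluster of 9 members. On chromosome 1 from 88.2 to 88.3 Mb, around the Mroh2a cluster, the mutants had 46, 47 and 56 peaks and the controls 60 and 51.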
